A study of Saccharomyces cerevisiae with 12 samples.

Results

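The transcripts followed here are those of 10 genes that carry glucose derepression in budding yeast: the 3 kinds of subunit of the Snf1 kinase (SNF1, SNF4, SIP1, SIP2 and GAL83), the repressors MIG1 and MIG2, and the activators CAT8, SIP4 and ADR1. They were chosen by name from 5656 genes with a probe set of their own, and each was represented by 1 probe set, which the array's naming does not mark as shared with similar transcripts. Expression had been measured on 12 arrays in 4 groups of 3 biological replicates, from cells with mitochondrial DNA (ρ+) and cells without it (ρ0). The glucose groups were taken in early log phase at 22 °C from CM, a complete medium, with 2% glucose, and the groups without glucose after the rest of each culture had been washed and shaken for 4 h in CM alone. No group was washed and shaken with glucose, so the loss of glucose cannot be told apart from these handling steps. The sources used here name neither the parent strain and its genotype nor the way mitochondrial DNA was lost.

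Snf1 is the yeast AMP-activated protein kinase. Its catalytic subunit Snf1 binds the activating gamma subunit Snf4 and 1 of the beta subunits Sip1, Sip2 and Gal83, which direct the complex to different places in the cell. When glucose runs out, upstream kinases phosphorylate Snf1, Snf1 phosphorylates the zinc-finger repressor Mig1, and Mig1 leaves the nucleus, which frees genes for the use of other sugars. Snf1 also acts through the activators Cat8, Sip4 and Adr1, which switch on genes of the glyoxylate cycle, gluconeogenesis, ethanol use and peroxisomal oxidation. Much of this control lies in the proteins, whereas the arrays measured only transcripts.

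Each value is a signal, the brightness of a probe set in arbitrary units. Signals at or below a detection level of 5.82, the 25th percentile of all signals, were taken as not detected. Between 85.7% and 88.8% of probe sets assigned to 1 gene lay above it on each array, and replicates of a group correlated across genes with r between 0.956 and 0.990. The ρ0 glucose array of replicate 2 and the ρ0 array without glucose of replicate 1 had low hybridization controls, with CreX at 285 and 487 against 525 to 869 elsewhere. The control BioDn was at 244 and 193 on them, against 283 to 413 elsewhere. The mitochondrial gene OLI1, which encodes an ATP synthase subunit, was checked against the strain labels: its signals lay between 100.3 and 159 on the 6 ρ+ arrays and at 0.435 or less on the 6 ρ0 arrays. Of 28 probe sets for mitochondrial DNA, 25 were not detected on any array, so most could not serve for this check. The 5′ to 3′ signal ratio of SPT15, which falls when RNA or cDNA is less complete, was 0.319 ± 0.0698 (SD, n = 3) in ρ+ with glucose and 0.188 ± 0.00577 without, and 0.249 ± 0.131 and 0.140 ± 0.0419 in ρ0. The ribosomal RNA control probe sets averaged 7.29 on the log2 scale in ρ+ with glucose and 8.61 without, and 7.52 and 8.35 in ρ0, although the RNA had been selected for poly(A) tails. The part of either measure in the results on glucose withdrawal was not tested.

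Of the 10 regulators, 8 were detected in at least 1 whole group. CAT8 was not detected on any array, and SIP4 was detected on 3 of the 12. Testing was restricted to genes with a group mean over the detection level, which left 9 of the 10 and 5361 genes altogether. Differences are on the log2(signal + 1.498) scale, and a gene is called higher or lower at an adjusted p under 0.05 over all genes tested (limma). A change in the share of cells that carry a transcript cannot be told apart from a change in its amount in each cell. All arrays had the same trimmed average of 100.1, so signals are relative and a change common to all transcripts would not show.

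**Figure D1:**
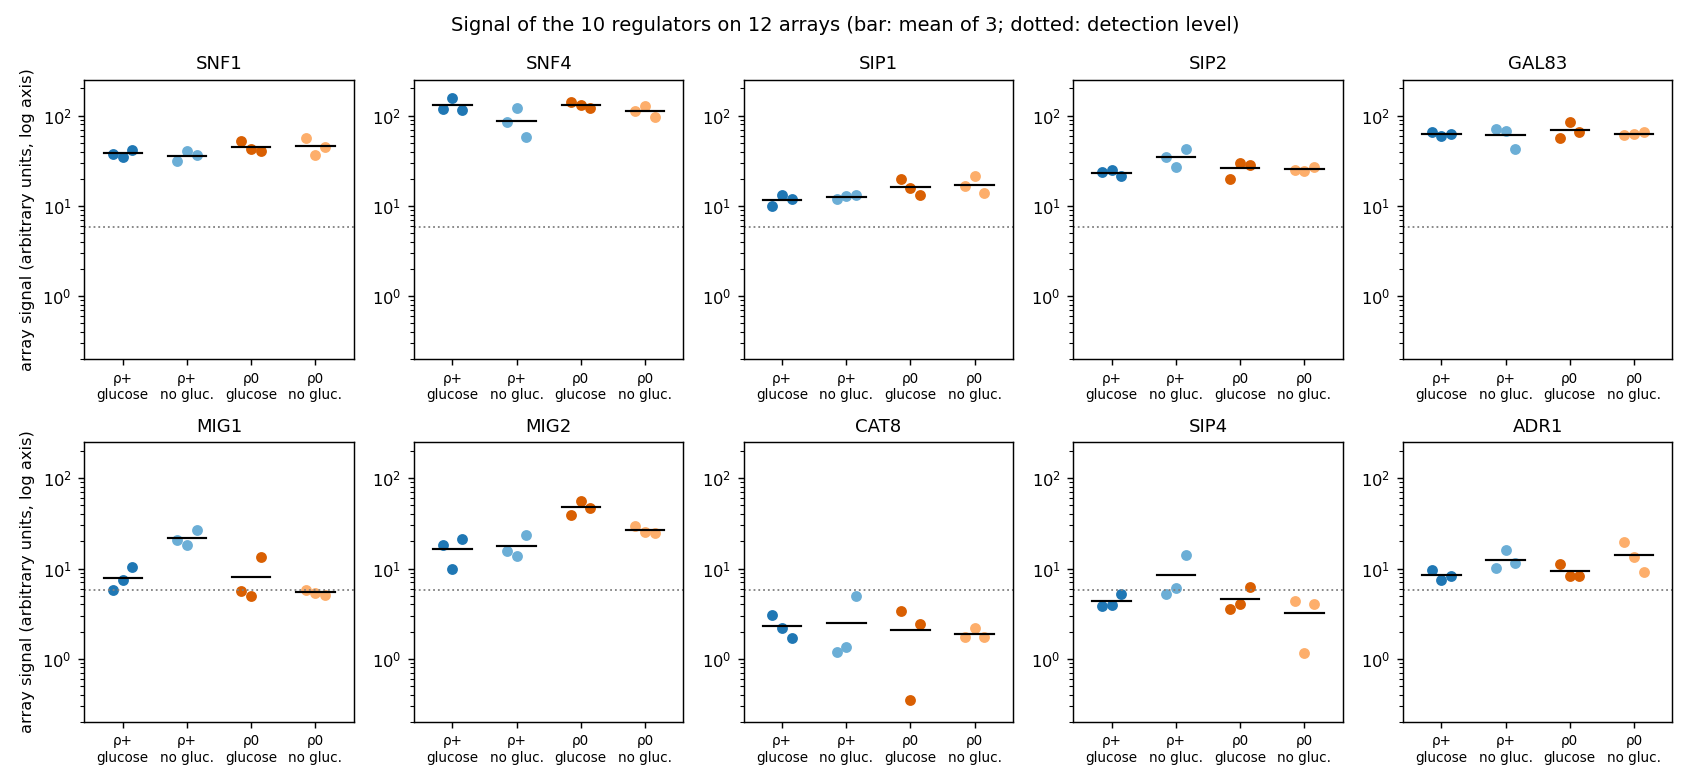
Signal of each regulator (log axis, arbitrary units) on the 3 arrays of each group, with the mean as a bar and the detection level of 5.82 as a dotted line. MIG1 stands highest in ρ+ without glucose and MIG2 highest in ρ0 with glucose, whereas CAT8 lies below the line on all 12 arrays.

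Counted together, 1 of the 9 tested regulators was called after withdrawal in ρ+ (MIG1, higher), where 32.7% of all genes tested were called, 10.5% as higher and 22.3% as lower. In ρ0 the count was 1 as well (MIG2, lower), against 17.0% of all genes, with 4.59% higher and 12.4% lower. The strain comparison in glucose called 1 (MIG2, higher in ρ0), against 6.45%, with 5.0% higher and 1.45% lower. Without glucose it called 2 (MIG1 and SIP4, both lower in ρ0), against 30.0%, with 20.6% higher and 9.40% lower. SIP4 entered the test through ρ+ without glucose alone, and without SIP4 that count was 1 of 8. The difference of the strains' responses was called for 1 (MIG1, lower in ρ0), against 6.92%, with 1.57% higher and 5.35% lower. Each is a count of 1 or 2 among 9 genes and is not set apart from these shares. The comparisons share arrays, so a gene's values in them are not independent. The median log2 differences of the 9, in the same order, were 0.12, −0.12, 0.13, 0.11 and −0.04, and those over all genes tested were −0.19, −0.11, 0.13, 0.21 and 0.09. Without SIP4 the medians of the other 8 were 0.11, −0.07, 0.13, 0.22 and −0.03.

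**Figure D2:**
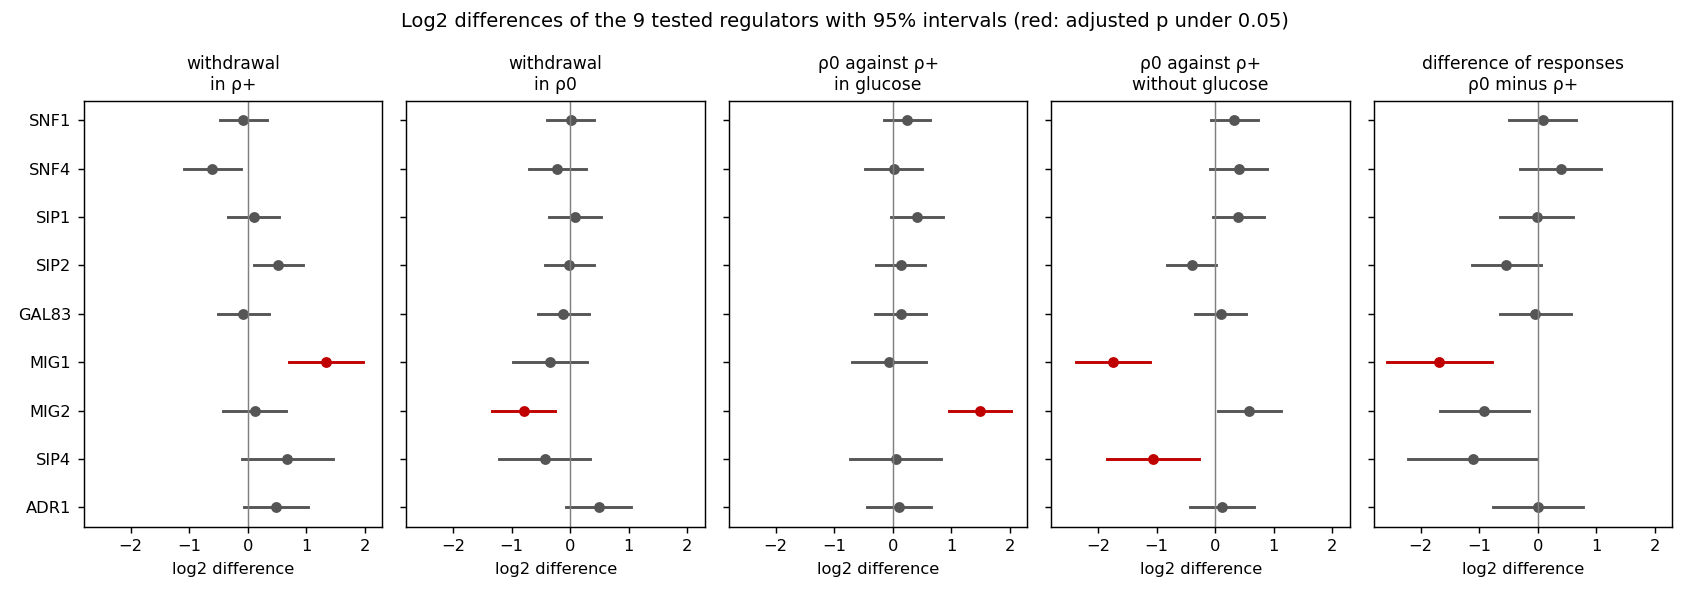
Log2 differences (points) with 95% intervals (bars) of the 9 tested regulators in the 5 comparisons, red where the adjusted p is under 0.05. The 6 red points belong to MIG1, MIG2 and SIP4, and all 5 kinase subunits and ADR1 are grey in every panel.

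None of the 5 subunit transcripts was called in any of the 5 comparisons, at unadjusted p values from 0.0170 to 0.982. SNF1, the catalytic subunit, measured 38.0 ± 3.76 (SD, n = 3) in ρ+ with glucose, 36.1 ± 4.96 in ρ+ without, 45.4 ± 6.39 in ρ0 with glucose and 46.0 ± 10.1 in ρ0 without. All 4 groups overlapped. Its log2 change after glucose withdrawal was −0.08 in ρ+, with a 95% interval from −0.48 to 0.32, and 0.00 in ρ0, with an interval from −0.40 to 0.41, so a 2-fold change lay outside both intervals.

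SNF4, the gamma subunit, gave signals of 120, 158 and 114 in ρ+ with glucose and 85.1, 121 and 57.8 without. The ρ0 arrays gave 140, 130 and 122 with glucose and 113, 128 and 97.2 without. The lowest values were those of 2 ρ+ arrays without glucose, but replicate 2 of that group lay within the range of the glucose group. The log2 difference for withdrawal in ρ+ was −0.61 ± 0.23 (SE; adjusted p = 0.0525), just short of the threshold. It was −0.87 (adjusted p = 0.0109) without ρ+ no glucose replicate 2, and it also passed without ρ0 glucose replicate 2 (0.0469), without both arrays of low hybridization controls (0.0492), in a fit restricted to these 2 groups (0.0478) and with a replicate block (0.0147). Only the settings that SNF4 passed are listed here, and its lowest signal, 57.8, was that of ρ+ no glucose replicate 3. In ρ0 the difference was −0.22 (adjusted p = 0.547).

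Of the 3 beta subunits, SIP2, whose protein is mostly cytoplasmic, gave signals of 23.8, 24.8 and 21.2 in ρ+ with glucose and 34.4, 26.9 and 42.4 without, and these groups did not overlap. In ρ0 it gave 20.0, 29.7 and 28.1 with glucose and 24.9, 24.3 and 26.7 without, which did overlap. Its log2 difference after withdrawal was 0.52 ± 0.20 (SE) in ρ+ (adjusted p = 0.0514) and −0.02 ± 0.20 in ρ0 (adjusted p = 0.968). The ρ+ value passed without ρ+ no glucose replicate 2 (adjusted p = 0.0241), ρ0 glucose replicate 1 (0.0414) or ρ0 glucose replicate 2 (0.0423), and without both arrays of low hybridization controls (0.0458). It also passed after quantile normalization (0.0217), after median centring (0.0122), with a pseudocount of 16 (0.0490) and in a fit restricted to these 2 groups (0.0363). Only the settings that SIP2 passed are listed here, and its highest signal, 42.4, was that of ρ+ no glucose replicate 3. The difference between the strains' responses was −0.54 ± 0.28 (adjusted p = 0.263).

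GAL83, the beta subunit known for taking the kinase to the nucleus, lay between 42.3 and 85.5 on the 12 arrays, with group means from 60.6 to 69.6. Its largest log2 difference in any comparison was 0.13 (95% interval −0.30 to 0.57). SIP1, the vacuolar beta subunit, was a dim transcript between 10.0 and 21.3. Its means were 11.7 ± 1.59 and 12.6 ± 0.634 in ρ+ with and without glucose, against 16.2 ± 3.39 and 17.2 ± 3.77 in ρ0. The strain difference was 0.41 ± 0.21 (SE) in glucose (adjusted p = 0.236) and 0.39 ± 0.21 without (adjusted p = 0.157), where the median of all genes was itself 0.13 and 0.21.

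MIG1, the main glucose repressor, was the regulator that rose when ρ+ cells lost glucose. Its signals were 5.84, 7.5 and 10.4 in ρ+ with glucose and 20.7, 18.3 and 27.0 without. In ρ0 they were 5.58, 4.95 and 13.5 with glucose and 5.71, 5.42 and 5.14 without. Every ρ+ array without glucose lay above every other array, while MIG1 exceeded the detection level on only 1 of the 6 ρ0 arrays.

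In ρ+ the rise of MIG1 was 2.52-fold (log2 1.33 ± 0.30 SE, adjusted p = 0.00359), and the call held under all 23 alternative settings, at log2 values from 0.67 to 1.53. In ρ0 the log2 difference was −0.35 ± 0.30 (adjusted p = 0.449). Without glucose, MIG1 was at least 3.17-fold lower in ρ0 than in ρ+ (log2 −1.75 ± 0.30, adjusted p = 0.000615), since it was not detected there, and this call also held under all 23 settings. With glucose the strain difference was −0.07, with a 95% interval from −0.70 to 0.56.

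The glucose response of MIG1 differed between the strains by a log2 value of −1.68 ± 0.42 (SE; adjusted p = 0.0239), lower in ρ0. This value includes signals under the detection level in ρ0, where MIG1 was detected on 1 of 3 arrays with glucose and on none without. With signals floored at that level the value was −1.67 (adjusted p = 0.00949). Leaving out replicate 1 (adjusted p = 0.0663) or 2 (0.0615) of ρ+ with glucose, or replicate 3 (0.0716) of ρ+ without, ended this call. It also ended when arrays were scaled to the Bacillus subtilis control transcripts (0.0545). ρ+ without glucose was thus the highest group, and the other 3 are given no order.

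MIG2, a zinc-finger repressor that acts beside Mig1 at promoters such as that of SUC2, had another order. It gave 18.3, 9.99 and 21.1 in ρ+ with glucose and 15.8, 13.7 and 23.5 without. In ρ0 it gave 38.9, 56.7 and 47.0 with glucose and 29.5, 25.5 and 24.6 without. All 6 ρ0 arrays lay above all 6 ρ+ arrays, and the ρ0 glucose arrays lay above the rest.

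MIG2 was 2.81-fold higher in ρ0 than in ρ+ with glucose (log2 1.49 ± 0.25 SE, adjusted p = 0.00237), a call that held under all 23 settings. Without glucose the strain difference was 0.58 ± 0.25 (adjusted p = 0.0927), and 0.79 (adjusted p = 0.0486) without ρ+ no glucose replicate 3. Glucose withdrawal in ρ+ gave 0.12 ± 0.25 (adjusted p = 0.756). In ρ0 MIG2 was 1.74-fold lower after withdrawal (log2 −0.80 ± 0.25, adjusted p = 0.0417), and that call was close to the threshold.

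The ρ0 call of MIG2 on withdrawal ended without any 1 of 7 arrays: ρ+ glucose replicate 1 (adjusted p = 0.0504), ρ+ no glucose replicate 1 (0.0540), ρ0 glucose replicates 2 (0.0985) and 3 (0.0990), and ρ0 no glucose replicates 1 (0.0693), 2 (0.108) and 3 (0.0836). It also ended without both arrays of low hybridization controls (0.120), after quantile normalization (0.113), after median centring (0.108) and with scaling to the control transcripts (0.106). Its direction was the same in all of them. The difference of the strains' responses was −0.91 ± 0.36 (adjusted p = 0.142).

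MIG2 and SIP2 are neighbours on chromosome VII in the RefSeq annotation of assembly R64, and GAL83 and MIG3 are neighbours on chromosome V. MIG3 encodes another repressor of the Mig family, the duplicate of Mig2, and Sip2 and Gal83 are duplicates likewise. MIG3 gave 11.5, 8.90 and 11.3 in ρ+ with glucose and 22.7, 31.8 and 23.2 in ρ0 with glucose. Without glucose it gave 13.4, 11 and 10.3 in ρ+ and 24.8, 17.8 and 22.9 in ρ0. Like MIG2, it had all ρ0 arrays above all ρ+ arrays.

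MIG3 was 2.26-fold higher in ρ0 with glucose (log2 1.17 ± 0.20 SE, adjusted p = 0.00248) and 1.78-fold higher without (log2 0.83 ± 0.20, adjusted p = 0.00676), and both calls held under all 23 settings. Withdrawal gave it 0.11 in ρ+ (adjusted p = 0.698) and −0.23 in ρ0 (adjusted p = 0.463). The neighbours SIP2 and GAL83 differed between the strains in glucose by 0.13 each (adjusted p = 0.725 and 0.735). Without glucose the ρ0 arrays of SIP2 all lay below those of ρ+, by a log2 value of −0.40 that was not called (adjusted p = 0.126). GAL83 had 0.09 there (adjusted p = 0.760), with overlapping groups.

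**Figure D3:**
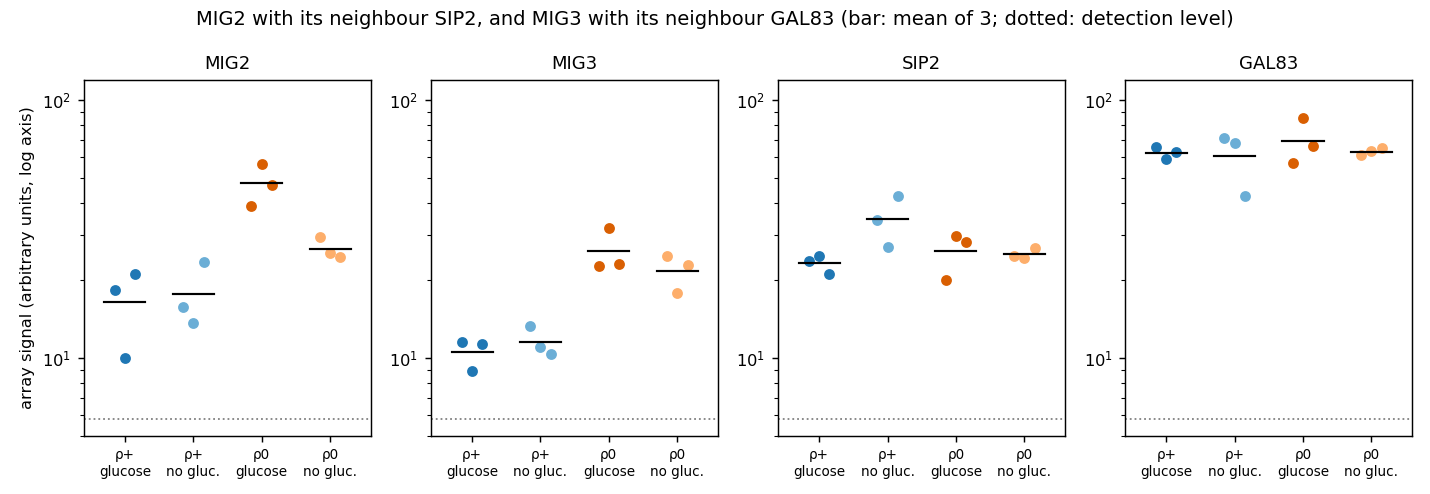
Signals (log axis, arbitrary units) of the duplicate repressors MIG2 and MIG3 beside their chromosomal neighbours SIP2 and GAL83, 3 arrays a group with the mean as a bar. Both repressors have all 6 ρ0 arrays above all 6 ρ+ arrays, and the ranges of SIP2 and GAL83 overlap between the strains in glucose. Without glucose the ranges of SIP2 do not overlap, with ρ0 below ρ+.

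The activators were dim on these arrays. CAT8, which encodes the zinc-cluster activator of gluconeogenic genes, gave 3.07, 2.19 and 1.71 in ρ+ with glucose and 1.18, 1.34 and 4.90 without. In ρ0 it gave 3.40, 0.352 and 2.45 with glucose and 1.76, 2.17 and 1.76 without. All 12 values lie below the detection level, so the files give only an upper bound for CAT8 and no order of its groups. Without the filter on low signals, its log2 values lay between −0.20 and 0.09 in the 5 comparisons, with the lowest adjusted p at 0.818.

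SIP4, an activator that binds the same element as Cat8 and whose gene is itself known to depend on Cat8, gave 3.81, 3.90 and 5.27 in ρ+ with glucose and 5.25, 6.02 and 14.1 without. In ρ0 it gave 3.55, 4.08 and 6.19 with glucose and 4.37, 1.16 and 4.08 without. A single ρ+ array without glucose, replicate 3, reached a signal of over 10, and the gene passed the filter through that group. SIP4 was called lower in ρ0 than in ρ+ without glucose (log2 −1.06 ± 0.37 SE, adjusted p = 0.0400), which counts as at least 1.26-fold because it was not detected in ρ0.

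That SIP4 call ended without ρ+ no glucose replicate 3 (adjusted p = 0.196), ρ0 no glucose replicate 2 (0.170), ρ+ glucose replicate 1 (0.0501) or ρ+ glucose replicate 2 (0.0522), with signals floored at the detection level (0.206), with scaling to the control transcripts (0.0825) and in a fit restricted to these 2 groups (0.0675). The withdrawal difference in ρ+ was 0.68 ± 0.37 (adjusted p = 0.171), and in ρ0 −0.44 ± 0.37 (adjusted p = 0.439).

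ADR1, the zinc-finger activator of ADH2 and peroxisomal genes, was detected on all arrays. It gave 9.71, 7.46 and 8.18 in ρ+ with glucose and 10.1, 16.04 and 11.5 without, and these groups did not overlap. In ρ0 it gave 11.1, 8.32 and 8.35 with glucose and 19.7, 13.4 and 9.04 without, which did. The log2 difference after withdrawal was 0.48 ± 0.26 (SE) in both strains (adjusted p = 0.166 in ρ+ and 0.212 in ρ0). The difference between the responses was 0.00, with a 95% interval from −0.77 to 0.78.

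The proteins that switch Snf1 on and off were then examined by their transcripts. Of 6 genes for the upstream kinases and the phosphatase, 1 rose and 1 fell in each strain after withdrawal, where 10.5% of all genes rose and 22.3% fell in ρ+, and 4.59% and 12.4% in ρ0. REG2, a regulatory subunit of the phosphatase Glc7, was 9.03 ± 0.649 (SD, n = 3) in ρ+ with glucose and 48.6 ± 1.43 without, a rise of 4.76-fold (adjusted p = 2.45e-06). In ρ0 it rose 2.10-fold, from 10.6 ± 2.95 to 24.0 ± 7.04 (adjusted p = 0.00369). TOS3, a kinase of Snf1, fell 2.49-fold in ρ+ (adjusted p = 0.000255) and 2.11-fold in ρ0 (adjusted p = 0.00256). These 4 calls held under all 23 settings.

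REG2 responded less in ρ0 by a log2 value of −1.18 ± 0.30 (SE; adjusted p = 0.0272), but that call ended under 11 of 22 settings, with the highest adjusted p at 0.126. Leaving out any 1 ρ+ array, replicate 3 of ρ0 with glucose, or replicate 1 or 2 of ρ0 without, ended it. The strain comparison without glucose called 20.6% of all genes tested as higher in ρ0 and 9.40% as lower, with a median log2 difference of 0.21. REG1, the main partner of Glc7 in glucose repression, was 1.68-fold higher in ρ0 than in ρ+ without glucose (adjusted p = 0.00952). In glucose its difference was 0.59 (adjusted p = 0.0748). The kinase gene SAK1 was called 1.41-fold higher in ρ0 without glucose (adjusted p = 0.0335), a call that ended under 9 of 23 settings, among them the omission of ρ+ no glucose replicate 1 or of ρ0 no glucose replicate 1 or 3, with the highest adjusted p at 0.228. The kinase gene ELM1 and GLC7 itself were called in no comparison, with log2 values between −0.37 and 0.45.

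Of 9 other genes of glucose repression, 2 rose and 2 fell in ρ+ after withdrawal, where 10.5% of all genes tested rose and 22.3% fell, and 2 fell in ρ0, where 12.4% of all genes did. These counts are near those shares. MTH1 and STD1, paralogous cofactors of the repressor Rgt1 in the glucose-sensing pathway, moved in opposite directions in ρ+. MTH1 rose 3.65-fold in ρ+, from 15.8 ± 1.57 (SD, n = 3) to 62.3 ± 13.05 (adjusted p = 9.25e-05), and STD1, whose protein also binds Snf1, fell 2.96-fold, from 76.3 ± 1.35 to 24.9 ± 2.64 (adjusted p = 3.91e-05). In ρ0 STD1 fell 2.65-fold (adjusted p = 0.000330), and MTH1 had a log2 value of 0.35 (adjusted p = 0.374), or 0.71 (adjusted p = 0.0387) without ρ0 no glucose replicate 2. The response of MTH1 differed between strains by −1.52 ± 0.37 (SE; adjusted p = 0.0189), a call that ended without ρ+ glucose replicate 2 or ρ+ no glucose replicate 3 (highest adjusted p = 0.0591).

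The other calls on withdrawal in this group were less firm. NRG2, a repressor of the Nrg family, fell 1.42-fold in ρ+ (adjusted p = 0.0362) and 1.49-fold in ρ0 (adjusted p = 0.0334), and HXK2, the hexokinase with a part in repression, rose 1.57-fold in ρ+ (adjusted p = 0.0392). Each NRG2 call ended under 9 of 23 settings (highest adjusted p = 0.2503 and 0.182): in ρ+ these included leaving out glucose replicate 2 or 3 or any array without glucose, and in ρ0 replicate 1 or 3 with glucose or replicate 1 or 2 without. The HXK2 call ended under 6 (highest adjusted p = 0.207), including the omission of ρ+ glucose replicate 2 or of any ρ+ array without glucose. CYC8, of the Cyc8-Tup1 co-repressor, was called higher in ρ0 by 0.81 in glucose (adjusted p = 0.0406) and by 0.68 without (adjusted p = 0.0326). The first call ended under 12 settings (highest adjusted p = 0.155), including the omission of ρ+ glucose replicate 1 or 2, ρ+ no glucose replicate 1 or any ρ0 glucose array. The second ended under 7 (highest adjusted p = 0.121), including the omission of ρ+ no glucose replicate 1 or 2 or ρ0 no glucose replicate 3.

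Of 10 other activators used without glucose, 1 rose in ρ+ after withdrawal and 2 fell in ρ0, which is again near the shares of all genes (10.5% and 12.4%). USV1, a zinc-finger factor known for growth on non-fermentable carbon, gave 2.12, 4.75 and 6.32 in ρ+ with glucose and 16.7, 24.5 and 14.6 without. In ρ0 it gave 7.29, 6.48 and 8.44 with glucose and 4.51, 1.36 and 6.91 without. It was detected on 1 of 3 arrays in ρ+ with glucose and in ρ0 without, so its differences rest in part on signals under the detection level. The log2 rise in ρ+ was 1.81 ± 0.37 (SE; adjusted p = 0.00195), or 1.39 with signals floored at that level. The response differed between strains by −2.57 ± 0.52 (adjusted p = 0.00634), or −1.60 with the floor (adjusted p = 0.000854). Both calls held under all settings run, 23 and 22.

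The stress activators MSN2 and MSN4 fell in ρ0 after withdrawal, by 1.91-fold (adjusted p = 0.00835) and 2.03-fold (adjusted p = 0.00818). The MSN2 call ended with scaling to the control transcripts (highest adjusted p = 0.0653). In ρ+ their log2 values were −0.47 (adjusted p = 0.102) and −0.04 (adjusted p = 0.904), and the difference between strains was not called for either (adjusted p = 0.386 and 0.0836). Without glucose the strain comparison, which called 20.6% of all genes tested as higher in ρ0 and 9.40% as lower, also called some of these pathway genes. MTH1, REG2, USV1 and MSN4 were lower in ρ0, by log2 values of −1.48 (adjusted p = 0.000753), −1.01 (0.00310), −1.90 (0.00159) and −0.93 (0.00837), of which the MSN4 call ended with scaling to the control transcripts other than TRP (0.0532). STD1 was higher in ρ0, by 0.71 (adjusted p = 0.0150), and so was OAF1, an activator of peroxisomal genes, by 0.93 (adjusted p = 0.0373). The STD1 call ended on leaving out replicate 1 of ρ+ or replicate 3 of ρ0, both without glucose, after median centring and after quantile normalization (highest adjusted p = 0.0657). The OAF1 call ended under 7 settings, among them the omission of any ρ+ array without glucose or of ρ0 no glucose replicate 2 or 3 (highest adjusted p = 0.112). HAP4, the activating subunit of the respiratory Hap complex, was not called, with withdrawal log2 values of 0.15 in ρ+ and −0.43 in ρ0 (adjusted p = 0.698 and 0.282).

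Genes that these regulators are known to control were set beside them. These gene lists were chosen with earlier results of the same arrays known. Of 9 genes that Cat8 and Sip4 activate, all 9 were called higher in ρ+ after withdrawal, where 10.5% of all genes tested were, with a median log2 change of 1.43, against −0.19 over all genes. One of them, SFC1, passed the filter on low signals through that group alone, and without it the count was 8 of 8 and the median 1.29. The lactate permease gene JEN1 rose 19.5-fold, from 12.8 ± 1.69 to 280 ± 52.9 (SD, n = 3; adjusted p = 4.46e-10), and ICL1, for isocitrate lyase, 3.27-fold (adjusted p = 7.64e-06). The count was 5 without ρ+ glucose replicate 2 and 9 without both arrays of low hybridization controls. FBP1, ACS1, SFC1 and IDP2, called at 1.61-fold, 2.14-fold, at least 1.43-fold and 1.69-fold, lost their calls under 7, 9, 2 and 4 of 23 settings (highest adjusted p = 0.105, 0.146, 0.0579 and 0.0986). For FBP1 these included leaving out any ρ+ glucose array or ρ+ no glucose replicate 1 or 2, and for ACS1 any ρ+ glucose array, ρ+ no glucose replicate 1 or 3 or any ρ0 array without glucose. For SFC1 they were ρ+ glucose replicate 2 and ρ+ no glucose replicate 3, and for IDP2 they included replicate 2 of either ρ+ group. SFC1, for the succinate-fumarate carrier, was not detected in ρ+ with glucose.

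Of 10 genes that Adr1 activates, 9 rose in ρ+, where 10.5% of all genes tested were called higher. The median was 2.24, against −0.19 over all genes. Without POX1, for acyl-CoA oxidase, which also passed the filter through that group alone, the count was 8 of 9 and the median 2.33. ADY2, for an acetate permease, rose 37.4-fold to 325 ± 57.2 (adjusted p = 1.28e-09), the catalase gene CTA1 17.3-fold to 145 ± 7.13 (adjusted p = 1.26e-09) and ADH2 5.04-fold to 189 ± 25.2 (adjusted p = 3.73e-08). GUT1, for glycerol kinase, was the gene not called (log2 0.26, adjusted p = 0.401). ACS1 stands in both lists. ADY2 and CTA1 were each detected on 2 of 3 ρ+ arrays with glucose.

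Of 8 tested genes that Mig1 and Mig2 repress, 5 rose in ρ+, where 10.5% of all genes tested were called higher. Their median was 1.55, against −0.19 over all genes. The invertase gene SUC2, on a probe set shared with similar genes, rose 10.3-fold to 416 ± 25.02 (adjusted p = 2.64e-09), the hexose transporter gene HXT2 6.96-fold (adjusted p = 2.15e-08) and the hexokinase gene HXK1 4.15-fold (adjusted p = 1.41e-06). HXT4, another transporter gene of the list, had a log2 value of −0.60 (adjusted p = 0.162), and −0.98 (adjusted p = 0.0314) without ρ+ glucose replicate 2. GAL1 and GAL4 did not pass the filter. MTH1 is counted here as well as among the repressors.

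In ρ0, where 4.59% of all genes tested were called higher and 12.4% lower, fewer genes of the same lists rose. Of the 9 Cat8 and Sip4 targets 1 rose and 1 fell (median −0.31). Of the 10 Adr1 targets 2 rose (median 0.09), and of the 8 tested Mig1 and Mig2 targets 2 rose (median 0.44). The median over all genes was −0.11. Without SFC1 the Cat8 and Sip4 median was −0.36, and without POX1 the Adr1 median was 0.15, with the same genes called. The Mig1 and Mig2 count was 4 after median centring or without ρ0 glucose replicate 2. JEN1 rose 2.17-fold, to 30.6 ± 6.24 (adjusted p = 0.00151), HXT2 4.18-fold (adjusted p = 6.80e-06) and SUC2 1.98-fold (adjusted p = 0.00204), all under every setting. ADH2 and ALD4 were called higher by 0.64 (adjusted p = 0.0120) and 0.62 (adjusted p = 0.0191), calls that ended under 3 and 5 settings (highest adjusted p = 0.151 and 0.144), namely with both scalings to the control transcripts, in a fit restricted to these 2 groups and, for ALD4, on leaving out replicate 3 of ρ0 with glucose or replicate 1 of ρ0 without. The fall of ICL1 by 0.56 (adjusted p = 0.0444) ended under 17 of 23 settings, among them the omission of any 1 array other than ρ+ glucose replicate 3 and ρ0 no glucose replicate 1 (highest adjusted p = 0.210).

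**Figure D4:**
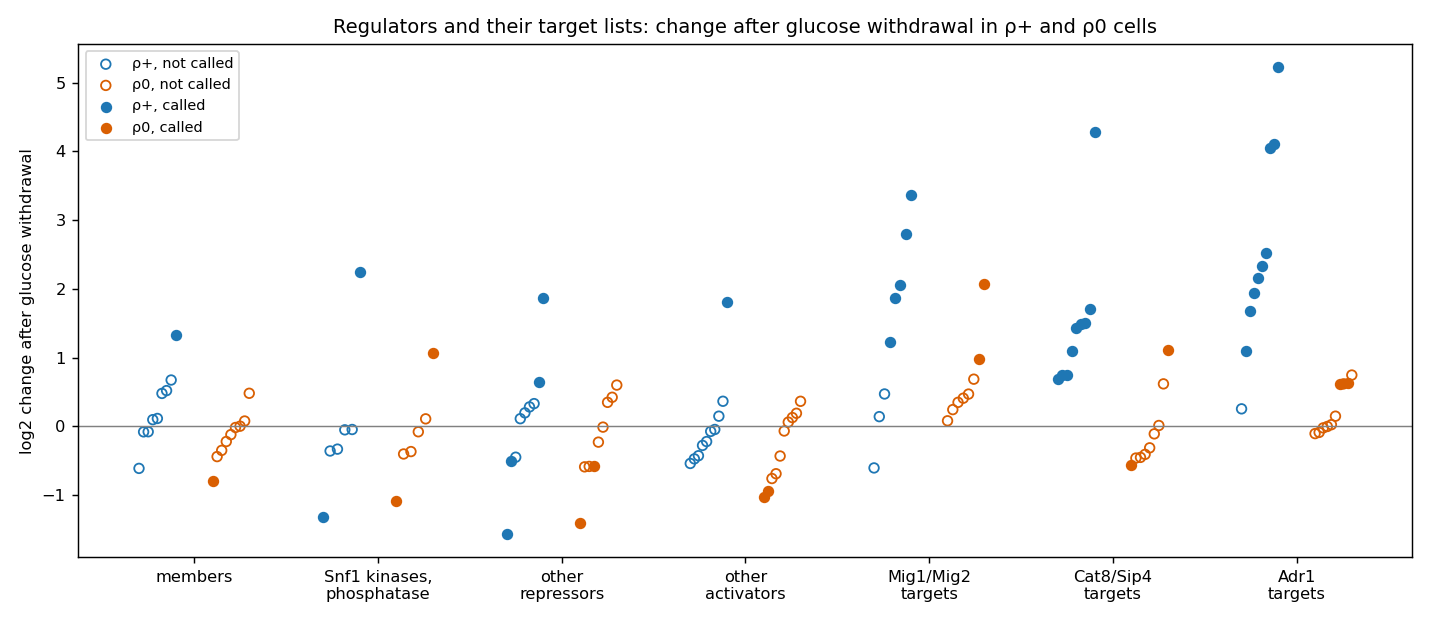
Log2 change after glucose withdrawal of each tested gene, in ρ+ (blue) and ρ0 (orange), for the 9 tested regulators, the 3 lists of other pathway genes and the 3 target lists (filled where called). In ρ+ the medians of the target lists are 1.55, 1.43 and 2.24, that of the regulators is 0.12 and that of all genes tested −0.19. Without SFC1, POX1 and SIP4, which passed the filter through ρ+ without glucose alone, the medians of their lists are 1.29, 2.33 and 0.11.

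The difference of the responses, ρ0 minus ρ+, was called lower for 5 of 9 Cat8 and Sip4 targets, 8 of 10 Adr1 targets and 3 of 8 Mig1 and Mig2 targets. Of all 5361 genes tested, 287 were called lower. Without SFC1 and POX1, which passed the filter through ρ+ without glucose alone, the Cat8/Sip4 and Adr1 counts were 5 of 8 and 7 of 9. Without glucose itself, 7 of 9, 8 of 10 and 5 of 8 were lower in ρ0 than in ρ+, where 504 of all genes were. Leaving out SFC1 and POX1 made the Cat8/Sip4 and Adr1 counts there 6 of 8 and 7 of 9. For the difference of the responses, the values of JEN1, ADY2, CTA1, SUC2 and HXK1 were −3.17, −4.48, −4.08, −2.38 and −1.58. These calls held under all 22 settings. HXT2 had −0.74 (adjusted p = 0.0907), so a difference between the strains was not called for it.

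With glucose the strain comparison called 2 of these targets, where 6.45% of all genes tested were called, a count near that share. PCK1, for phosphoenolpyruvate carboxykinase, was called 2.06-fold higher in ρ0 (adjusted p = 0.0230) and HXT4 5.21-fold lower (adjusted p = 0.000345). The PCK1 call ended under 6 of 23 settings, among them the omission of ρ+ glucose replicate 2 or 3 or of ρ0 glucose replicate 1 or 3 (highest adjusted p = 0.106). HXT4 measured 139 ± 54.7 (SD, n = 3) in ρ+ and 24.6 ± 7.48 in ρ0 and held under all 23 settings. It was also 2.58-fold lower in ρ0 without glucose (adjusted p = 0.00575). MIG2 and MIG3 were the repressors called higher in ρ0 with glucose under every setting. Of the 8 tested Mig1 and Mig2 targets, 1 (HXT4) was called lower in that comparison and 7 were not called. A link between these repressors and HXT4 was not tested.

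Profiles over the 12 arrays were set beside those of MIG1, MIG2 and SIP4, the members with the widest range of group means (1.75, 1.49 and 1.06 on the log2 scale). The profiles most like MIG1 by Pearson correlation were those of MPM1 (0.956), YPK2 (0.942) and ATP16 (0.928), which encode a mitochondrial membrane protein, a protein kinase and the delta subunit of the ATP synthase. For MIG2 they were PEX17 (0.928), PDX1 (0.916) and YHC1 (0.906), which encode a peroxisomal import protein, a subunit of pyruvate dehydrogenase and a splicing protein. For SIP4 they were YSF3 (0.866), ATP3 (0.859) and HRT1 (0.851), which encode a splicing protein, the gamma subunit of the ATP synthase and a ubiquitin ligase subunit. ATP16 had group means of 425 and 631 in ρ+ with and without glucose and of 385 and 309 in ρ0. PDX1 had means of 41.9 and 41.7 in ρ+ and of 62.7 and 55.9 in ρ0. SIP4 was above the detection level on 3 of the 12 arrays and MIG1 on 7, so the range and the correlations of SIP4 rest mostly on undetected signals. Arrays of a group share their treatment, and the correlations are a description over 12 arrays.

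**Figure D5:**
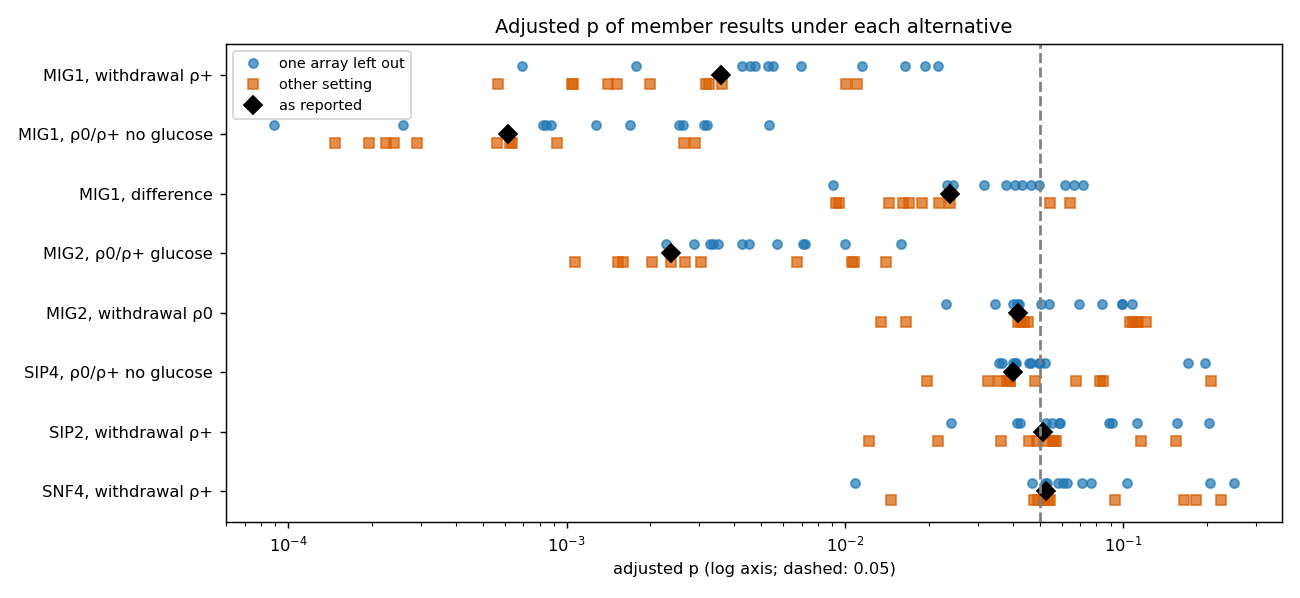
Adjusted p (log axis) of 8 results on members as reported (black diamonds), with 1 array left out (blue circles) and under the other settings (orange squares). The 2 upper MIG1 results and the MIG2 strain difference in glucose stay left of the threshold of 0.05, and the other 5 results have points on both sides.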

How the data were processed

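The authors deposited 1 linear signal intensity for each of 9335 probe sets on each of 12 arrays, summarised, per the submitters' processing notes, with MAS5. The sources used here give no version, scaling target or detection calls. On every array the signals averaged 100.1 once the lowest and highest 2% were trimmed. RNA was selected for poly(A) tails, per the labels' protocols. The platform annotation and RefSeq (R64) named 6504 probe sets of 5656 genes; of several probe sets for 1 gene, the brightest by mean stood for it.

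The scale was log2(signal + 1.498), the added value being the 10th percentile of all signals. All genes tested entered a single fit with a mean for each of the 4 groups, made with limma 3.58.1 in R 4.3.3 (lmFit, contrasts.fit and eBayes with trend), without a block. P-values were two-sided with Benjamini-Hochberg adjustment over 5361 genes and a threshold of 0.05. The fit was tested on simulated data. Their noise was independent and normal with the same spread in every group, so that test does not bear on array effects, shared cultures or undetected signals. An "at least" fold is set against the detection level on the same scale. The number of arrays limits the precision: the median SE was 0.21 for withdrawal in ρ+ and 0.30 for the difference.

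The members, lists, tests and alternatives were chosen with earlier results of these data known. The text names all 10 members, the called genes of the lists (at most the 6 largest a list and comparison, of which it gives a part) and, for the 3 members of widest range, the 3 most alike genes. MIG3 belongs to a list. ELM1, GLC7, GUT1 and HAP4, list genes that were not called, were named after their values were seen. Promoter motifs and protein sequences were not analysed here. The labels call the replicates biological.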

Additional observations from a re-analysis of the deposited data

Results flagged for a closer look

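The strain difference in the response to glucose withdrawal was taken as ρ0 minus ρ+. It was past the threshold (limma) for MIG1 and 18 of the 50 other list genes tested, all with a lower response in ρ0. Over all genes tested, 5.35% were called lower in this comparison and 1.57% higher. The lists were chosen with earlier results of these arrays known. The log2 value was −1.68 for MIG1, a call that leaving out replicate 1 or 2 of ρ+ with glucose, or replicate 3 of ρ+ without, ended (adjusted p = 0.0663, 0.0615 and 0.0716). In ρ0 MIG1 was detected on 1 of 3 arrays with glucose and on none without, so the value includes undetected signals. Among the other regulators it was −1.18 for REG2, −1.52 for MTH1 and −2.57 for USV1. Among the targets of Cat8 and Sip4 it was −2.27 for ICL1, −1.96 for MLS1, −1.89 for PCK1, −1.21 for MDH2 and −3.17 for JEN1. Among the targets of Adr1 it was −1.70 for ADH2, −1.90 for ALD4, −4.48 for ADY2, −4.08 for CTA1, −2.24 for POX1, −1.68 for FOX2, −4.07 for POT1 and −1.80 for SPS19. Among the targets of Mig1 and Mig2 it was −2.38 for SUC2 and −1.58 for HXK1, beside MTH1. The REG2, MTH1, MDH2 and POX1 calls also ended under some settings, with the highest adjusted p at 0.126, 0.0591, 0.0711 and 0.0709. For POX1 these were the omissions of ρ+ glucose replicate 1 or 2 or of ρ+ no glucose replicate 1 or 3. POX1 was detected on 1 of 3 arrays in each group other than ρ+ without glucose, through which alone it passed the filter on low signals, and USV1 on 1 of 3 in ρ+ with glucose and in ρ0 without. With signals floored at the detection level the values of MIG1, USV1 and POX1 were −1.67, −1.60 and −1.55. Groups of 3 arrays are too small for a test of single outlying arrays.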

How the results depend on the processing

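Of 45 results on the 9 tested members, 6 were called, 3 of them under all settings run. Of the 39 others, 5 passed the threshold under some setting and 20 changed sign under some setting without being called. For withdrawal in ρ+, where 1 member was called, 2 were called with a pseudocount of 16, quantile normalization, median centring and the replicate block, and 3 in the fit to the 2 groups alone and without both arrays of low hybridization controls. For withdrawal in ρ0 the count of 1 became 0 (limma) after quantile normalization and median centring, where 2 had an unadjusted p under 0.05, and 0 with scaling to the B. subtilis controls, with or without the TRP probe sets, and without both arrays of low hybridization controls, where 1 had. For ρ0 against ρ+ without glucose the count of 2 became 1 with both control scalings, with signals floored at the detection level and in the fit to the 2 groups alone. For the difference the count of 1 became 0 with both control scalings, where 3 had an unadjusted p under 0.05. Leaving out single arrays gave 1 to 3 for withdrawal in ρ+, 0 to 1 in ρ0, 1 throughout for ρ0 against ρ+ in glucose, 1 to 3 without glucose and 0 to 1 for the difference. The leave-out of both arrays, the scaling without TRP and the counts and medians without SIP4, SFC1 or POX1 were chosen after seeing the data. The replicate numbers were tried as a block for a shared culture: same-numbered arrays with and without glucose had deviations that correlated at −0.0255 to 0.107 in ρ+ and 2.33e-05 to 0.520 in ρ0, so the samples share a number but are not shown to be paired, and not every array correlated best with its own number. With the replicate block SNF4 on withdrawal in ρ+ had an adjusted p of 0.0147. Median centring moved the median of all genes on withdrawal in ρ+ from −0.19 to 0.02, and control scaling moved that of ρ0 against ρ+ in glucose from 0.13 to 0.33. The mean log2 control signals lay between 3.38 and 4.06, both ends within ρ+ with glucose, so control scaling adds that spread to the values. All genes called higher and lower on withdrawal in ρ+ were 561 and 1193, against 807 and 548 after median centring and 426 and 414 with control scaling. In ρ0 they were 246 and 666, against 318 and 506 with quantile-normalized arrays, 444 and 382 when arrays were centred on the median and 96 and 291 with control scaling. For ρ0 against ρ+ in glucose they were 268 and 78, against 138 and 104, 118 and 160, and 354 and 22 in the same order, and without glucose 1102 and 504, against 712 and 538, 442 and 740, and 903 and 288. For the difference they were 84 and 287, against 9 and 179 with control scaling. In the fits to 2 groups alone, 86 and 331 were called on withdrawal in ρ0. Single arrays moved these counts as well: without ρ+ glucose replicate 2 they were 407 and 747 on withdrawal in ρ+, 116 and 27 for ρ0 against ρ+ in glucose and 32 and 198 for the difference, and without ρ0 glucose replicate 3 they were 110 and 360 on withdrawal in ρ0. Of 91 calls on 50 other list genes, 66 held under every setting, and no call changed direction. CAT8 and, in most groups, SIP4 were under the detection level, which limits what their values can show.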
